A study of Mus musculus with 6 samples.

Results

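Splicing factor and hnRNP genes were taken by symbol from the RefSeq table of the mouse genome: protein-coding genes whose names begin with Hnrnp, with Srsf and a digit, with Sf3a or Sf3b and a digit, or with Snrp. The rule gave 53 of 21896 protein-coding genes: 21 hnRNP genes, 11 SR protein genes (Srsf), 9 genes of the SF3A and SF3B complexes, and 12 Sm and snRNP protein genes (Snrp). Hnrnpa1l2-ps2 carries a pseudogene-style name but is annotated as protein-coding, and was kept. The samples were mouse embryonic stem cells grown in 2i+LIF, with GFP knocked in at the eye-field gene Rx. All were without endogenous Wdr5 and p53, and carried either wild-type WDR5 (the WT rescue) or WDR5 with S91K and Y191F (the mutant rescue), numbered as in the labels. WDR5 and H3K4me3 were mapped by chromatin immunoprecipitation sequencing (ChIP-seq), with 1 library per antibody and line; the 2 input libraries were not analysed here. No difference between the lines therefore has a replicate check, no test is given, and the labels do not say whether each line is a single clone.

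Splicing removes introns from pre-mRNA. The spliceosome is built from small nuclear ribonucleoproteins (snRNPs), in which Sm proteins form a ring around each small nuclear RNA and the SF3A and SF3B complexes of the U2 snRNP hold the branch point. SR proteins mostly promote the use of exons, and heterogeneous nuclear ribonucleoproteins (hnRNPs) coat pre-mRNA and often oppose them. WDR5 is a scaffold of the KMT2/SETD1 complexes, which methylate histone H3 at lysine 4. H3K4me3, the form with 3 methyl groups, is found at most active promoters but also at some silent ones.

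Rows of the authors' peak lists are called regions here, and a gene counted as occupied if any region reached to within 1 kb of one of its annotated ends on mm10. The WT rescue had 11095 WDR5 and 71695 H3K4me3 regions, and the mutant rescue 26888 and 74305. The number and width of regions can depend on read depth, which these files do not give. The strength of a region is given by the authors' fold enrichment at its summit and by the −log10 of its q-value. A fold is read within its own list and is not a measure of change between the lines. A −log10 q of at least 2 was reached by 10.8% of WDR5 regions of the WT rescue and 4.83% of those of the mutant rescue. Among cell type markers, 9 of 10 of stem cells (Esrrb lacked a region) had H3K4me3 at a gene end in both lines, beside 66.5% of all protein-coding genes. Of 8 fibroblast markers, 6 had one in the WT rescue and 3 of those 6 in the mutant rescue, while Col3a1 and Postn had none in either line.

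WDR5 regions were listed at 24 of the 53 splicing genes (45.3%, exact 95% interval 31.6 to 59.6%) in the WT rescue, where 16.3% of all protein-coding genes had one. In the mutant rescue 11 genes (20.8%, 10.8 to 34.1%) had a region, beside 10.7% of all genes. Both lists held 8 members (15.1%, 6.75 to 27.6%), beside 4.33% of all genes. A further 16 (30.2%, 18.3 to 44.3%) had WDR5 in the WT rescue alone, beside 12.0% of all genes, and 3 (5.66%, 1.18 to 15.7%) in the mutant rescue alone, beside 6.37%. The mutant rescue list is the longer one. With both WDR5 lists cut to equal length, by p-value, 24 members (16.3% of all genes) had WDR5 in the WT rescue, 7 (6.23%) in the mutant rescue and 5 (3.11%) in both. At the deposited lengths the share with WDR5 in the mutant rescue alone was close to that of all genes. Most members carry H3K4me3, so the counts were also set beside genes that have H3K4me3 in both lines. Of 50 such members, 24 (48.0%) had WDR5 in the WT rescue, 11 (22.0%) in the mutant rescue and 8 (16%) in both, beside 23.9%, 14.0% and 6.45% of 14571 such genes. The intervals cover counting error only, and genes are not replicates of a line. With a −log10 q of at least 2, 6 members remained in the WT rescue (2.35% of all genes had such a region) and 2 in the mutant rescue (1.72%), so most of the regions counted here are weak ones.

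The share with WDR5 varied between the 4 families, which hold 9 to 21 genes each, and the difference was not tested. Of the SR genes 7 of 11 were occupied in the WT rescue and of the hnRNP genes 11 of 21. The counts were 4 of 12 for Snrp genes and 2 of 9 for SF3 genes. Of all protein-coding genes 16.3% were occupied there, and of those with H3K4me3 in both lines 23.9%. Mutant rescue counts were 3, 4, 2 and 2 for SR, hnRNP, Snrp and SF3 genes, beside 10.7% and 14.0%. Taken as pairs of families, 18 of 32 hnRNP and SR genes (56.2%, 37.7 to 73.6%) were occupied in the WT rescue, while 7 (21.9%, 9.28 to 40%) were in the mutant rescue. For SF3 and Snrp genes the counts were 6 of 21 (28.6%, 11.3 to 52.2%) and 4 (19.0%, 5.45 to 41.9%). The intervals of the 2 pairs overlap in both lines. The pairs were not planned and join the families with the higher WT rescue shares and those with the lower, so their WT rescue contrast follows from those shares.

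**Figure D1:**
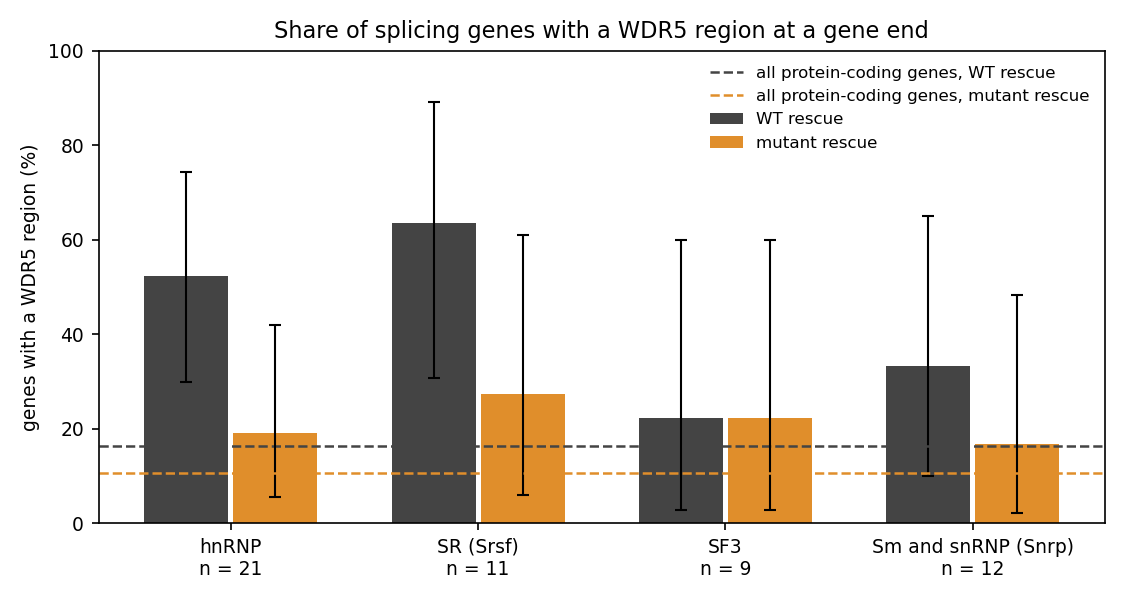
Percentage of genes in each splicing family with a WDR5 region within 1 kb of a gene end, in the WT rescue (dark bars) and the mutant rescue (orange bars), with exact 95% intervals; dashed lines give the share of all protein-coding genes. The WT rescue bars of the hnRNP and SR families, 52.4% and 63.6%, stand above the dashed line at 16.3% with their whole intervals.

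The strongest regions of the whole set lay at a gene of the Sm ring and a gene of the U2 snRNP. Snrpb, which encodes the Sm proteins B and B′ (chromosome 2, 130171636 to 130179382, mm10), had a WDR5 region over its higher-coordinate end in both lines. In the WT rescue it ran from 130178643 to 130179536 with a fold of 14.7 and a −log10 q of 60.3, and ranked 115 of 11095 by p-value. In the mutant rescue it ran from 130178610 to 130180035 with a fold of 9.24 and a −log10 q of 37.1, and ranked 162 of 26888. The summits lay 161 and 100 bp inside the gene, and H3K4me3 regions of 2064 and 1631 bp overlapped the WDR5 regions in the same lines.

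Sf3b3 encodes a large subunit of SF3B (chromosome 8, 110810491 to 110846806, minus strand). Its WDR5 region ran from 110846192 to 110846969 in the WT rescue, with a fold of 6.45, a −log10 q of 38.6 and rank 196 by p-value. In the mutant rescue it ran from 110845667 to 110847217, with a fold of 12.1, a −log10 q of 88.6 and rank 53. The summits lay 130 and 163 bp downstream of the annotated start. The same regions lay within 1 kb of an end of Cog4, the neighbouring gene. Snrpb thus had the higher WT rescue fold of the pair and Sf3b3 the higher mutant rescue fold. These were the 2 members with a −log10 q of at least 2 in both WDR5 lists, a class that held 0.822% of all protein-coding genes.

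**Figure D2:**
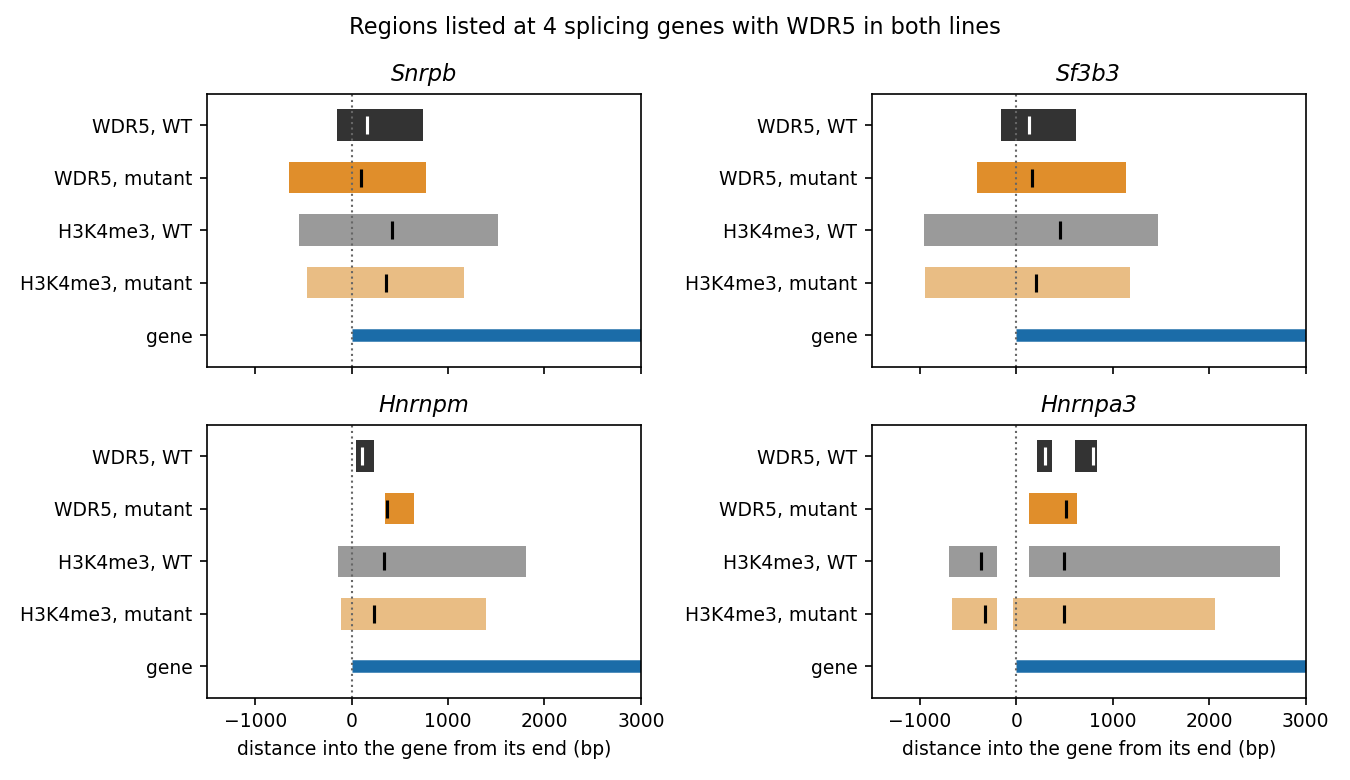
Regions listed in the 4 peak lists around the gene end that carries WDR5 at Snrpb, Sf3b3, Hnrnpm and Hnrnpa3; the horizontal axis gives bp into the gene from that end, bars are regions, ticks are summits and the blue bar is the gene. At Snrpb and Sf3b3 the WDR5 regions are 778 to 1551 bp wide and overlap each other, while at Hnrnpm the regions of 191 and 308 bp lie side by side.

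Another 6 members had WDR5 regions in both lists, all weaker. Hnrnpm, an hnRNP of alternative splicing, had a WT rescue region of fold 3.16 (−log10 q 2.24) with its summit 113 bp downstream of the start and a mutant rescue region of fold 2.34 (−log10 q 0.252) at 369 bp; the 2 regions did not overlap. Hnrnpa3 had WT rescue regions of fold 2.99 and 2.06 and a mutant rescue region of fold 2.73 that overlapped both, with a −log10 q of 1.30, 0 and 1.18. At Hnrnpa2b1, whose neighbour within 1 kb is the heterochromatin protein gene Cbx3, the WT rescue region (fold 2.61) had its summit 421 bp downstream of the start. The mutant rescue region of Hnrnpa2b1 (fold 1.96) lay beyond the gene, 726 bp from its end. These 3 were the hnRNP genes of the class. The mutant rescue fold lay under 3 at each of them.

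Sf3a2, a subunit of SF3A, had regions of fold 2.20 and 2.34 whose summits stood at the same base, 617 bp upstream of its start. They also lay within 1 kb of Plekhj1, and Sf3a2 was not the gene with the nearest end. Snrpg, an Sm ring gene, had 2 WT rescue regions, of fold 2.63 and 2.34, and a mutant rescue region of fold 2.1 that overlapped the second. Srsf9, an SR protein gene, had regions of fold 2.16 and 1.85. For these 3 genes the −log10 q was at most 0.252 in either list. Regions at Snrpg and Hnrnpm also lay within 1 kb of another gene (Fam136a and Marchf2). Regions of the 2 lines overlapped by at least 1 bp at 6 of the 8 shared members, the exceptions being Hnrnpa2b1 and Hnrnpm, and overlapped reciprocally by 50% at 4, namely Sf3b3, Snrpb, Snrpg and Srsf9.

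The promoters of 4 shared members are shown because the WDR5 regions lie on or beside them; shared members in the RefSeq promoter table (GRCm38.p6), which has no entry for Snrpb, were ranked by the smaller of their 2 WDR5 folds, and these are the first 4. Each runs 5′ to 3′ on the strand of its gene, from 250 bases before the start to 50 after it: Sf3b3 at chr8:110846754-110847053 on the minus strand, Hnrnpa3 at chr2:75659009-75659308 on the plus strand, Hnrnpm at chr17:33685409-33685708 on the minus strand and Sf3a2 at chr10:80798485-80798784 on the plus strand. Capitals mark matches on either strand, and neighbouring or overlapping matches run together. The motifs searched for were CCGGAA, the core letters of sites bound by ETS factors, and CACGTG, the E-box bound by proteins such as Myc and Max. The CCAAT box was searched for by its 5 letters, the GC box of Sp factors as GGGCGG, and the box bound by the TATA-binding protein as TATAAA. For the factor YY1 the letters ATGGCG were used, for the cyclic AMP response element TGACGTC, and for the factor NRF1 the core GCATGCG.
Sf3b3: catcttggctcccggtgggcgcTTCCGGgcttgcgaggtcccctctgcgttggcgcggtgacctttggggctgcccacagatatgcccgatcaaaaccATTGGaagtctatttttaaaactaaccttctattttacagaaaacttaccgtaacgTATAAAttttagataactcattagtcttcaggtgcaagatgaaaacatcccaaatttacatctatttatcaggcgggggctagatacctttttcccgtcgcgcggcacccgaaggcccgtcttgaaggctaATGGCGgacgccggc
Hnrnpa3: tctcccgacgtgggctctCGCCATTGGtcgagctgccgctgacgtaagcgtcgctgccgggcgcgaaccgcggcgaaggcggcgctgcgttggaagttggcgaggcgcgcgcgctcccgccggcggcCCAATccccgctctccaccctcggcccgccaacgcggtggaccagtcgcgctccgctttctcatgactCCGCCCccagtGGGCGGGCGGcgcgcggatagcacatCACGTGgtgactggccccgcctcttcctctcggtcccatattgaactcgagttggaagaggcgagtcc
Hnrnpm: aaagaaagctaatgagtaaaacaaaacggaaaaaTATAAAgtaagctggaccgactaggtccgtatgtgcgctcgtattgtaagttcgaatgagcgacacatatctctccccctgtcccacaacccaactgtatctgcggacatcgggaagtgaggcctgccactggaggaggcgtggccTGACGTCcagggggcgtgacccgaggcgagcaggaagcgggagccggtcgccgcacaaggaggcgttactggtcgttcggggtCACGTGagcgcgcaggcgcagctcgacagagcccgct
Sf3a2: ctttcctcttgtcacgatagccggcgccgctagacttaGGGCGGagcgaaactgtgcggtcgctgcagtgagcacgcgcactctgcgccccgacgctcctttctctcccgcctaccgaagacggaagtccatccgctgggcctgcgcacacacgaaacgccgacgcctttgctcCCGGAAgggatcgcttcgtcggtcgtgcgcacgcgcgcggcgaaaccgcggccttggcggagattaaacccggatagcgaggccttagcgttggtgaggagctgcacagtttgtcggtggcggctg
Their GC content was 50%, 70.3%, 58.0% and 65.0%. No motif was found in all 4: CCGGAA was found at Sf3b3 and Sf3a2, CACGTG at Hnrnpa3 and Hnrnpm, and TATAAA at Sf3b3 and Hnrnpm.

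The members with WDR5 in the WT rescue alone came mostly from the SR and hnRNP families: 6 SR genes, 8 hnRNP genes, 2 Snrp genes and no SF3 gene. Srsf7, an SR protein that also takes part in mRNA export, had the highest fold, 3.89 (−log10 q 3.92, rank 639 by p-value), on chromosome 17 from 80207027 to 80207487. This region also lay within 1 kb of Gemin6, which encodes a factor of snRNP assembly. Srsf5 followed among the SR genes with a fold of 3.47 (−log10 q 2.07, chromosome 12, 80945716 to 80946241), and Srsf10, which can act as a splicing repressor, with 3.16 (−log10 q 2.24, chromosome 4, 135856287 to 135857111). Srsf2, Srsf4 and Srsf6 had folds of 2.58, 2.41 and 2.34, each with a −log10 q of 0. The Srsf2 region lay at the gene end away from its start. Another Srsf2 region, of fold 2.96 (−log10 q 0.766), lay within 1 kb of the start but 1135 bp from the nearest gene end. Srsf7, Srsf5 and Srsf10 were thus the SR genes past a −log10 q of 2, and all 3 were without a region in the mutant rescue list.

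Of the 8 hnRNP genes in the WT rescue alone, Hnrnpl, which binds CA-rich RNA, had 2 regions of fold 3.28 and 3.14 (−log10 q 1.49 and 1.60). Hnrnpa1, the most studied splicing silencer of the family, had a fold of 3.23 (−log10 q 1.22), on chromosome 15 from 103240400 to 103240726. Hnrnpa0, Hnrnpul1, Hnrnpll, Hnrnph3, Hnrnpdl and Hnrnpab had folds from 3.13 down to 2.35 and a −log10 q of 1.03 or less. Snrpe and Snrpd3, both of the Sm ring, had folds of 3.49 (−log10 q 1.66) and 2.89 (−log10 q 0.387). No member of this class outside the SR family reached a −log10 q of 2. Regions at Hnrnpa1 (Cbx5), Hnrnpul1 (Axl), Hnrnpll (4933407O12Rik), Hnrnph3 (Pbld2), Hnrnpdl (Enoph1) and Snrpd3 (Gucd1) also lay within 1 kb of the gene in brackets. Hnrnpdl and Hnrnpll were not the genes with the nearest end.

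The mutant rescue list alone held 3 members. Srsf1, the founding SR protein (SF2/ASF), had a region of fold 2.97 (−log10 q 1.57) with its summit 18 bp upstream of the annotated start, on chromosome 11 from 88047300 to 88047601. Hnrnpk, which binds C-rich RNA, had one of fold 2.90 (−log10 q 1.12) on chromosome 13 from 58402760 to 58403041, which also lay within 1 kb of Rmi1. Srsf11 had one of fold 2.21 (−log10 q 0), shared with Lrrc40. None of the 3 reached a −log10 q of 2. In the WT rescue list Srsf11 had a region 1440 bp beyond its end, outside the window.

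**Figure D3:**
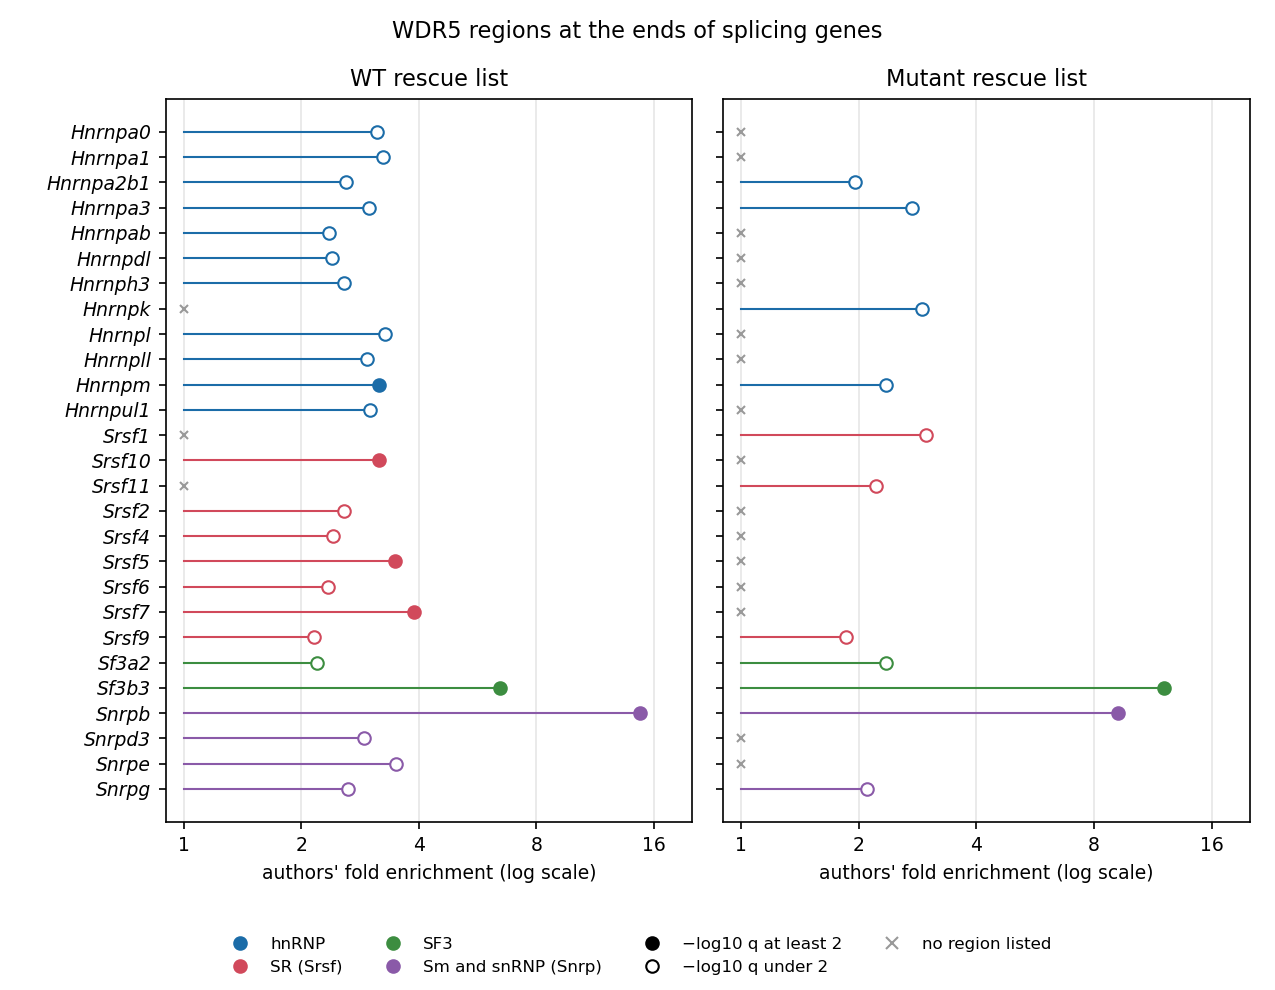
The authors' fold enrichment (log scale) of the strongest WDR5 region within 1 kb of a gene end, for the 27 members with a region in either line. The WT rescue list is on the left and the mutant rescue list on the right. Filled points have a −log10 q of at least 2 and crosses mark genes with no region. Snrpb and Sf3b3 stand apart from the others in both lists, and the other members lie under a fold of 4.

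The remaining 26 members had no WDR5 region at a gene end in either list. They were 7 SF3 genes (Sf3a1, Sf3a3, Sf3b1, Sf3b2, Sf3b4, Sf3b5 and Sf3b6) and 8 Snrp genes (Snrpa, Snrpa1, Snrpb2, Snrpc, Snrpd1, Snrpd2, Snrpf and Snrpn). The SR genes among them were Srsf3 and Srsf12, and the 9 hnRNP genes were Hnrnpc, Hnrnpd, Hnrnpf, Hnrnph1, Hnrnph2, Hnrnpr, Hnrnpu, Hnrnpul2 and Hnrnpa1l2-ps2. Sf3b1, which contacts the branch point and is the largest SF3B subunit, was thus without WDR5 at its ends, as were the genes of the U1-specific proteins Snrpa and Snrpc and the U2-specific proteins Snrpa1 and Snrpb2.

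Gene ends were a poor guide for some of these. Hnrnph1 has 5 annotated starts inside its annotated span, and its WT rescue WDR5 regions, of fold 3.57 (−log10 q 2.73) and 2.77 (−log10 q 1.17), lay 2545 and 1726 bp from the nearest gene end but within 1 kb of those starts. Hnrnpu, which encodes the nuclear matrix protein SAF-A, had a WT rescue region of fold 3.46 (−log10 q 2.49) that lay 1552 bp inside the gene and within 1 kb of its start. Hnrnpf had regions at its internal starts in both lines, with folds of up to 2.61 (WT rescue) and 2.26 (mutant rescue). Counting annotated starts as well as gene ends, a choice made after seeing the data, gave 27 members in the WT rescue (17.9% of all genes), 12 in the mutant rescue (11.7%) and 9 in both (4.87%). Just outside the 1 kb window lay a WT rescue region of Srsf3 (fold 2.88), 1064 bp from the gene end. So did one of Hnrnpa0 (fold 3.38, −log10 q 1.27), at 1033 bp, a gene counted by its other regions. Just inside the window lay a WT rescue region of Srsf2 (fold 2.58) at 934 bp.

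Where the annotation gives a start, the WT rescue summits lay mostly downstream of it, as they did over all protein-coding genes. Some genes gave more than 1 summit. Of 31 WT rescue regions within 1 kb of a start of the 47 members in the promoter table, 24 (77.4%) had their summit downstream, at a median of 157 bp over all 31. Over all protein-coding genes the share was 68.1% and the median 143 bp. For hnRNP and SR genes 21 of 25 summits were downstream, and for SF3 and Snrp genes 3 of 6. Of the mutant rescue summits 5 of 12 (41.7%) were downstream, beside 59.9% over all genes. All 29 WT rescue and all 11 mutant rescue WDR5 regions at the ends of members were overlapped by an H3K4me3 region of the same line. Over all protein-coding genes 91.8% and 69.7% were, a comparison not matched for H3K4me3. Every member with WDR5 had H3K4me3 at a gene end in both lines. So did 3488 of all 3573 genes with WDR5 in the WT rescue and 2043 of 2343 in the mutant rescue.

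**Figure D4:**
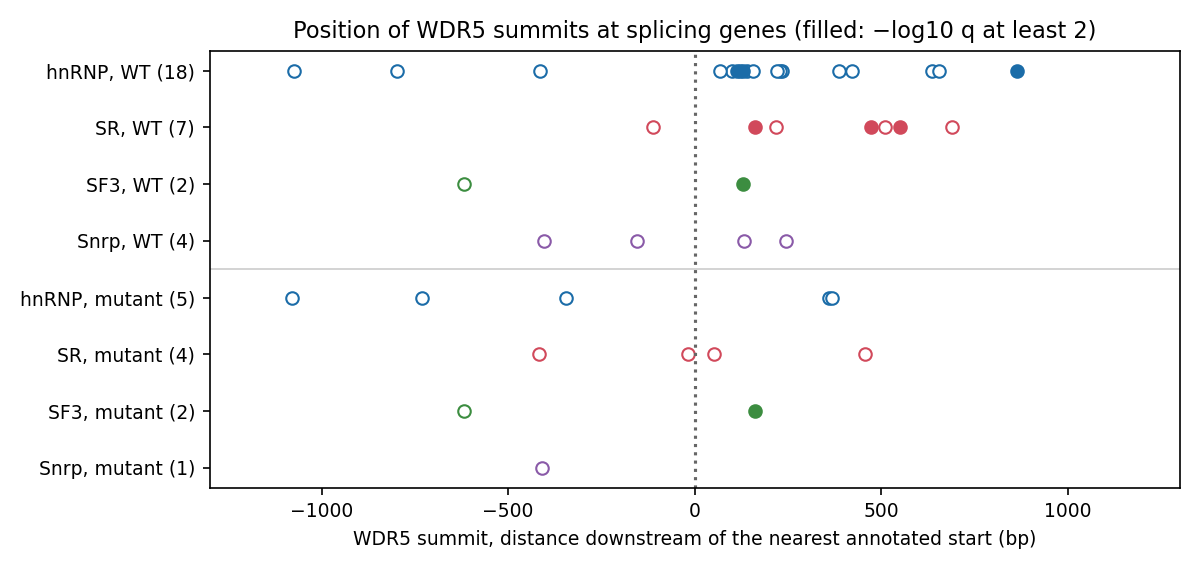
Position of each WDR5 summit in bp downstream of the nearest annotated start, for regions within 1 kb of a start, by family and line with the number of regions in brackets; filled points have a −log10 q of at least 2. In the WT rescue 21 of 25 hnRNP and SR summits (84%) lie to the right of the start, beside 68.1% over all protein-coding genes.

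H3K4me3 was listed at 50 of the 53 members (94.3%, 84.3 to 98.8%) in each line, beside 68.4% (WT rescue) and 67.6% (mutant rescue) of all protein-coding genes, and the same 50 were in both lists (66.5% of all genes). The 3 without a region at a gene end were Hnrnph1, Snrpn and Hnrnpa1l2-ps2. Hnrnph1 had regions of 716 and 1800 bp at its internal starts in the WT rescue and 1 region of 2481 bp there in the mutant rescue. Snrpn, an imprinted gene expressed from the paternal copy and encoding SmN, had regions of 2618 and 1984 bp at an internal start. Hnrnpa1l2-ps2 had no H3K4me3 or WDR5 region in any list, near its ends or its start.

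The hnRNP and SR genes had wide H3K4me3 regions and the SF3 and Snrp genes narrower ones. In the WT rescue the median width of the widest region at a gene end was 2600 bp for hnRNP, 2382 bp for SR, 1958 bp for SF3 and 1833 bp for Snrp genes, beside 1515 bp for all protein-coding genes with a region. Mutant rescue medians were 2097, 2174, 1757 and 1571 bp, beside 1455 bp. The ranges overlap: WT rescue widths ran from 241 to 3575 bp for hnRNP genes and from 1294 to 2292 bp for Snrp genes. A width of at least 2 kb was reached by 29 of 50 members (58.0%) in the WT rescue and 26 of 50 (52.0%) in the mutant rescue, beside 18.7% and 13.5% of all genes with a region. The authors' H3K4me3 fold ran the other way within each list, with WT rescue medians of 5.82, 6.69, 10.8 and 10.2 for hnRNP, SR, SF3 and Snrp genes and 10.2 for all genes.

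The widest regions in the WT rescue were at Hnrnpdl (3575 bp), Hnrnpd (3428 bp), which encodes the AU-rich element binding protein AUF1, Hnrnpk (3316 bp) and Hnrnpa0 (3099 bp). The same 4 genes had mutant rescue regions of 3320, 3128, 3055 and 2716 bp. The widest mutant rescue region was at Srsf3, with 3351 bp, where the WT rescue list had 2 regions of 2716 and 509 bp. Sf3a3 (1215 and 1265 bp) and Snrpb2 (1294 and 1267 bp) had the narrowest of their families in both lines. The low WT rescue values of Hnrnpu (241 bp) and Srsf1 (712 bp) came from how rows were divided. In that list regions of 2825 bp at Hnrnpu and 2032 bp at Srsf1 lay just outside the window, while in the mutant rescue list regions of 2818 and 2556 bp reached into it.

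The widest region was narrower in the mutant rescue list than in the WT rescue list at 43 of the 50 members (86.0%), with a median difference of −198 bp, beside 73.1% and −73 bp for all protein-coding genes with a region in both. The share was 16 of 19 for hnRNP, 8 of 11 for SR, 8 of 9 for SF3 and 11 of 11 for Snrp genes. A narrower region was thus common across the whole list of genes as well, and depth, which is unknown, cannot be told apart from the line.

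**Figure D5:**
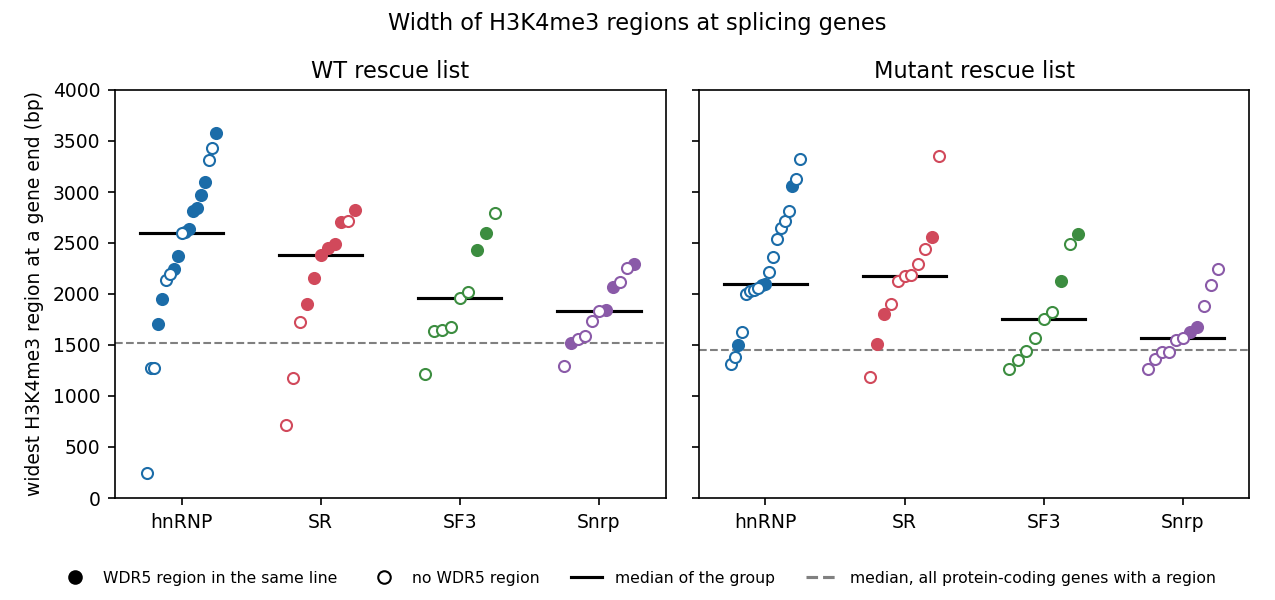
Width in bp of the widest H3K4me3 region within 1 kb of a gene end for each member, by family, in the WT rescue list (left) and the mutant rescue list (right); filled points have a WDR5 region in the same line, black bars are family medians and the dashed line is the median of all protein-coding genes with a region. In the WT rescue panel the filled points of the hnRNP and SR families lie at 1701 bp and above.

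WDR5 was listed more often in the WT rescue at members with wide H3K4me3 than at the others, as it was over all genes. In the mutant rescue this held over all genes, while the shares of the members differed little. Of the 24 members with an H3K4me3 region of at least 2 kb in both lines, 16 (66.7%, 44.7 to 84.4%) had WDR5 in the WT rescue, beside 39.6% of the 1761 protein-coding genes with such a region. Of the other 26 members with H3K4me3 in both lines, 8 (30.8%, 14.3 to 51.8%) had WDR5, beside 21.8% of 12810 genes. Mutant rescue counts were 5 of 24 (20.8%) and 6 of 26 (23.1%), beside 18.7% and 13.4%. Srsf1, which had WDR5 in the mutant rescue, and Hnrnpu, which did not, counted among the others. Their wide WT rescue H3K4me3 regions lay just outside the window, so the order of these member shares depends on the window. Among the wide members the WT rescue count held 5 of 6 SR and 8 of 13 hnRNP genes. The part of H3K4me3 width in the family counts was not tested.

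Promoter letters were compared over the 47 members in the promoter table. A gene counted if any of its promoters there held the letters, so genes with more annotated starts had more chances of a match. CCGGAA was found on either strand in 24 of 47 (51.1%), beside 20.9% of all protein-coding genes there and 28.1% of those with H3K4me3 in both lines. ATGGCG was found in 17 of 47 (36.2%), beside 12.4% and 16.3%. By family CCGGAA was found in 6 of 7 SF3, 6 of 10 Snrp, 6 of 11 SR and 6 of 19 hnRNP genes, and CCAAT in 2, 4, 4 and 14 of them. Over genes with H3K4me3 in both lines, 42.7% held CCAAT. The E-box, CACGTG, was found in 6 members (12.8%), of which 5 were hnRNP genes, beside 11.1% of the genes with H3K4me3. Members with a WDR5 region in either line and members without one held CCGGAA in 13 of 25 and 11 of 22 and ATGGCG in 10 of 25 and 7 of 22. A match is a description of these letters and not a binding site.

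Other genes of the splicing pathway came from 5 lists that share no gene with the members. Their counts can be read against the 16.3% (WT rescue), 10.7% (mutant rescue) and 4.33% (both) of all genes. Among genes with H3K4me3 in both lines the shares were 23.9%, 14.0% and 6.45%. Of 71 further spliceosome core and helicase genes, 26 were occupied in the WT rescue, 14 in the mutant rescue and 10 in both. The highest folds were at Ddx39b, which encodes the RNA helicase UAP56 (11.0 and 12.9, −log10 q 57.8 and 70.4). Eftud2 (3.84 and 4.21) and Prpf3 (3.36 and 5.06), of the U5 and U4/U6 snRNPs, also passed a −log10 q of 2 in both lists. Snu13, Prpf8, Isy1 and Txnl4a passed it in the WT rescue and Lsm6 and Phf5a in the mutant rescue. All 71 had H3K4me3 in both lines.

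Of 30 SR-related proteins and SR kinases, 14 had WDR5 in the WT rescue, and 6 of these 14 also had it in the mutant rescue. Rnps1, a subunit of the exon junction complex, led with folds of 11.4 and 14.4 (−log10 q 46.0 and 62.6), at regions shared with Eci1. Clk4, an SR protein kinase, had folds of 4.17 (−log10 q 4.24) and 2.54. In the WT rescue list Srpk1 and Scaf11 also passed a −log10 q of 2. Of 40 other RNA-binding regulators, 20 were occupied in the WT rescue, 6 in the mutant rescue and 4 in both. Ptbp1, the polypyrimidine tract binding protein, had folds of 3.36 (−log10 q 2.29) and 2.27, and Tia1 had 6.36 in the mutant rescue alone (−log10 q 18.7), at a region whose edge lies less than 200 bp from a tRNA gene.

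Of 16 snRNP assembly factors, 6 had WDR5 in the WT rescue, 3 in the mutant rescue and 2 in both. Among the 6 was Gemin6 (fold 3.89, −log10 q 3.92), counted by the region it shares with the member Srsf7. Clns1a, which encodes the Sm protein chaperone pICln, had folds of 5.18 and 6.05 (−log10 q 8.06 and 13.7). Prmt5, which encodes a methyltransferase of Sm proteins, had the highest fold of this list, 10.8 in the mutant rescue alone (−log10 q 38.6), also less than 200 bp from a tRNA gene. Of 11 neuronal splicing regulators, Nova1 had a region at a gene end in each line (folds 3.63 and 2.30), and the others had none. The share was 9.09% in each line (0.23 to 41.3%). This interval holds the shares of all genes, 16.3% and 10.7%, and of genes with H3K4me3 in both lines, 23.9% and 14.0%. The list is thus too short to tell its WDR5 share from theirs. All 11 regulators had H3K4me3 in both lines. The median width of their H3K4me3 was 1375 bp in the WT rescue and 1361 bp in the mutant rescue, under the medians of all protein-coding genes with a region.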

How the data were processed

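The submitters' processing notes name MACS2 2.1.2, BWA 0.7.17-r1188, Picard and SAMtools, and the build mm10, per the labels; settings and the control for each list are not given in the sources used here. Cells were fixed for 10 minutes in 1% formaldehyde, per the labels' protocols. Each deposited list belongs to 1 library. In it the authors give every region a summit, a fold enrichment (a ratio), a score (not used here), and p and q as −log10 values. Regions were deposited down to a −log10 p of about 2. Depth is unknown.

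Gene ends came from the RefSeq table of GRCm38.p6, the assembly that mm10 also uses, and starts and strands from its promoter table (47 of 53 members). Overlap means at least 1 bp. Shares have exact Clopper-Pearson 95% intervals. Python 3.11.15, numpy 2.4.6, pandas 2.3.3, scipy 1.17.1 and matplotlib 3.10.9 were used. The occupancy code was tested on simulated data against a direct search.

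The members and lists were chosen with earlier results of these data known. Members are fixed by symbol. Values are given in full for members with WDR5 in both lists or a −log10 q from 2 upward, the 6 highest folds in a single list, and members lacking H3K4me3; other lists name up to 4 shared members and those past a −log10 q of 2. Alternatives were stricter thresholds (−log10 q from 2 or −log10 p from 5 upward), the mutant rescue lists cut to the length of the others, windows of 500 bp and 2.5 kb, annotated starts, the nearest gene end, overlapping regions, and leaving out regions near a tRNA gene (200 bp) or those 270 to 290 bp wide whose fold reached 5. Starts or ends together were added after seeing the data.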

Additional observations from a re-analysis of the deposited data

How the results depend on the processing

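The counts of members with a WDR5 region depended on the threshold. At a −log10 q from 2 upward they were 6 in the WT rescue, 2 in the mutant rescue and 2 in both (2.35%, 1.72% and 0.822% of all genes), in place of 24, 11 and 8. At a −log10 p from 5 upward they were 11, 5 and 3, beside 4.69%, 2.76% and 1.21% of all genes. When lists were cut to equal length, which leaves fewer mutant rescue regions, 7 members were counted there (6.23% of all genes) and 5 were shared (3.11%). When the regions of the 2 lines had to overlap reciprocally by 50%, 4 members were shared. Under the windows of 500 bp and 2.5 kb, the annotated starts, the nearest gene end, the added use of starts or ends, and the removal of narrow regions and of regions near tRNA genes, all 3 WDR5 counts stayed within 1.5 times their values. With the 2.5 kb window the WDR5 counts were 28, 13 and 10, beside 19.9%, 15.9% and 6.03% of all genes. There the mutant rescue share rose more, in proportion, over all genes than over members. With the 500 bp window the counts were 21, 9 and 6 (13.4%, 8.16% and 3.35%). By nearest gene end they were 21, 8 and 6 (14.5%, 9.75% and 3.73%). By annotated starts they were 24, 11 and 8 of 47 members (16.5%, 9.43% and 4.32%). The H3K4me3 counts stayed between 46 and 52 under every alternative run, 46 being of the 47 members with an annotated start. No paired analysis was possible because the labels give no replicate numbers and each antibody and line has 1 library; for the same reason no replicate could be left out.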

Other observations

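A few WDR5 regions lay inside splicing genes far from any annotated start. Hnrnpr, whose product is related to the RNA-binding protein SYNCRIP, had one in the WT rescue list at 136330065 to 136330262 of chromosome 4, with a fold of 4.10 and a −log10 q of 3.26. No H3K4me3 region overlapped it in either line, and it lay 15719 bp from the nearest gene end. The mutant rescue list held another inside the same gene, from 136342752 to 136343126, with a fold of 2.64 and a −log10 q of 0.348.

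The annotated span of Snrpn held 3 mutant rescue WDR5 regions, of fold 2.57 to 2.76 and a −log10 q of at most 0.622, and none from the WT rescue. Inside it both H3K4me3 lists held a narrow region of high fold on chromosome 7, of 263 bp and fold 30.6 in the WT rescue and of 266 bp and fold 22.2 in the mutant rescue, 98787 and 98785 bp from the nearest annotated start.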
